A study of Homo sapiens with 12 samples.

Results

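The HOX cluster genes are the 39 protein-coding genes whose symbol is HOXA, HOXB, HOXC or HOXD followed by a number, out of 58735 gene rows, and they were chosen by name and biotype alone. They lie in 4 clusters: 11 HOXA genes on chromosome 7, 10 HOXB genes (chromosome 17, 48528526 to 48729178 on GRCh38), 9 HOXC genes (chromosome 12, 53938765 to 54056030) and 9 HOXD genes (chromosome 2, 176092891 to 176190907). Their RNA was followed in 12 bulk RNA-seq libraries of KYSE180 and KYSE150, established lines of human oesophageal squamous cell carcinoma, with 3 libraries in each of 4 groups. The groups were KYSE180 overexpressing CDCA7, native KYSE180 controls, KYSE150 carrying a short hairpin RNA against CDCA7 (shCDCA7) and native KYSE150 controls. The controls are labelled native and wild type, with no empty-vector or scrambled-hairpin group in the labels, which also name no clone or hairpin sequence. The labels do not state whether the 3 libraries of a group are separate cultures. Every p-value therefore refers to the spread between these libraries, which may be technical. The comparisons ask how RNA changes when CDCA7 is raised in one line and lowered in the other.

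HOX genes encode homeodomain transcription factors that give cells of the embryo their position along the head-to-tail axis, and many stay active in adult epithelia and in carcinomas. Within a cluster the genes stand in the order of their paralog numbers, from anterior genes with low numbers to posterior genes with high numbers, and the chromosomal order follows the order of their expression in the embryo. Polycomb complexes keep the clusters silent, Trithorax and MLL complexes keep them active, retinoic acid induces the anterior genes, and TALE homeodomain proteins (PBX, MEIS, PKNOX) bind DNA together with HOX proteins. CDCA7 is a zinc-finger protein of the nucleus and a partner of HELLS, a chromatin remodeller needed for the upkeep of DNA methylation, which is placed on cytosines followed by guanine (CG).

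RefSeq promoter windows, each running from 250 bases before to 50 bases after a start of transcription (GRCh38.p14), were held for 20 of the 39 genes and 26 distinct starts, 1 of them shared by HOXC4 and HOXC5. The windows of 4 genes are shown because their RNA carries the results below: HOXA7 and HOXA11 were called lower with both constructs, the change of HOXA9 differed between the constructs, and HOXD11 belongs to the cluster that was silent in KYSE150. Each is written 5′ to 3′ on the strand of its gene with every CG in capitals, from chr7:27156626-27156925 (minus strand) for HOXA7, chr7:27165488-27165787 (minus) for HOXA9, chr7:27185183-27185482 (minus) for HOXA11 and chr2:176107030-176107329 (plus) for HOXD11.
HOXA7: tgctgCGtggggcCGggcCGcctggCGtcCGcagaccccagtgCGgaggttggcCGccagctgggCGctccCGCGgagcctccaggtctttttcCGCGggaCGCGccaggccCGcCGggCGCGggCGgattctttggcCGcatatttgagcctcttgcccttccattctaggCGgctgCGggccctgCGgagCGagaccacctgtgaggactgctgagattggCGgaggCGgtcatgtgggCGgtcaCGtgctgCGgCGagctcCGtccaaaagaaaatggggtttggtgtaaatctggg
HOXA9: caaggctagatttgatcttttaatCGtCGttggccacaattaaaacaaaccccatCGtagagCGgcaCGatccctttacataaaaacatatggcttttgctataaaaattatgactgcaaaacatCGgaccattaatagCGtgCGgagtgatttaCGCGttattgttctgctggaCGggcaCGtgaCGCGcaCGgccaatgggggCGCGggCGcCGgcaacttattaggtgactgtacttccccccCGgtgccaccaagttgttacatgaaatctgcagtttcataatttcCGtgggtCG
HOXA11: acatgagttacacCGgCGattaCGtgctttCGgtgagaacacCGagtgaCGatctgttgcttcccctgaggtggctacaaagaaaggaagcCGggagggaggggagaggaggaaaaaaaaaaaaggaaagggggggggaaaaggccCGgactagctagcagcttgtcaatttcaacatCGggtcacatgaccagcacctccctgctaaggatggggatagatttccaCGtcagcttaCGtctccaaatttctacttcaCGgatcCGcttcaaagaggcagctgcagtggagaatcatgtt
HOXD11: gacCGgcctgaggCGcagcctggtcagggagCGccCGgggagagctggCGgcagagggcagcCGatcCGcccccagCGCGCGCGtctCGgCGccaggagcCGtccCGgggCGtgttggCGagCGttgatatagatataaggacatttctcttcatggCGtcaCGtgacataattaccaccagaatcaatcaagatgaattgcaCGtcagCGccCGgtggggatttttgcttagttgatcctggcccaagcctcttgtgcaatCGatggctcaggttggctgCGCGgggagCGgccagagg

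The HOXA7 window holds 31 CG, and 20.6% of the 34943 distinct windows of all genes hold at least as many. HOXD11 has 27 (28.1% of all windows hold at least as many), HOXA9 has 22 (37.6%) and HOXA11 has 13 (51.6%). The median was 22.5 over the 26 HOX windows and 14 over all windows, and HOX windows ran from 0 to 44. The letters TGATNNAT, a site bound jointly by PBX and HOX proteins, occurred on either strand in 3 HOX windows, those of HOXA2, HOXB1 and HOXD11 (11.5% of HOX windows, against 7.42% of all windows). These are descriptions of the letters alone, since neither methylation nor factor binding was measured. The 19 genes without a window, HOXB7 and HOXC13 among the results below, are named only.

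CDCA7 itself followed the labels. It stood at 44.6, 59.1 and 57.9 FPKM (fragments per kilobase of gene, scaled for depth, as deposited) with overexpression, against 24.0, 18.2 and 17.4 in KYSE180 controls, and at 9.24, 10.1 and 8.83 FPKM with shCDCA7, against 27.4, 25.6 and 25.6 in KYSE150 controls. The log2 changes were 1.40 (SE 0.17, adjusted p = 0.00974) and -1.39 (SE 0.09, adjusted p = 0.00170). Libraries held 16.3 M to 19.6 M reads. Mitochondrial reads made up 7.97% to 8.65% of overexpression libraries against 4.76% to 6.38% of KYSE180 controls, and 5.20% to 11.2% of shCDCA7 libraries against 4.03% to 4.15% of KYSE150 controls. Replicate 2 of shCDCA7 stood apart: it held the 11.2%, correlated at r = 0.939 and 0.943 with its group, whose other pair reached 0.993 (log2 values across genes), and had a slope of -0.427 log2 units per 10% of GC content, against -0.0376 and -0.0608 in the other two. Of 10 squamous epithelial markers all averaged at least 1 FPKM in both KYSE180 groups and 8 in both KYSE150 groups, where SOX2 (0.0844 FPKM with shCDCA7, 0.121 in controls) and KRT13 (0.081 and 0.113) were near 0. Summed markers of fibroblasts, leukocytes and endothelium stayed at or under 5.51, 1.92 and 1.62 FPKM in every library.

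The 2 lines differed in which HOX genes were on. Of 39 genes, 23 averaged at least 1 FPKM in overexpressing KYSE180 and 27 in KYSE180 controls, against 10 in shCDCA7 KYSE150 and 13 in KYSE150 controls. Summed over all 39, the level was 128 ± 13 FPKM in overexpressing cells and 140 ± 4.04 in their controls, against 38.3 ± 7.72 in shCDCA7 cells and 50.1 ± 0.786 in KYSE150 controls (SD, n = 3 each). Posterior genes (paralog numbers 9 to 13, 16 genes) carried 55.6% ± 1.59 and 55.4% ± 1.95 of that sum in the overexpressing and control KYSE180 groups. In shCDCA7 and control KYSE150 they carried 21.8% ± 3.48 and 27.4% ± 1.89. Anterior genes (numbers 1 to 3, 8 genes) carried 8.45% ± 0.747 and 8.85% ± 0.849 in the KYSE180 groups and 32.8% ± 3.74 and 25.4% ± 0.824 in the KYSE150 groups.

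**Figure D1:**
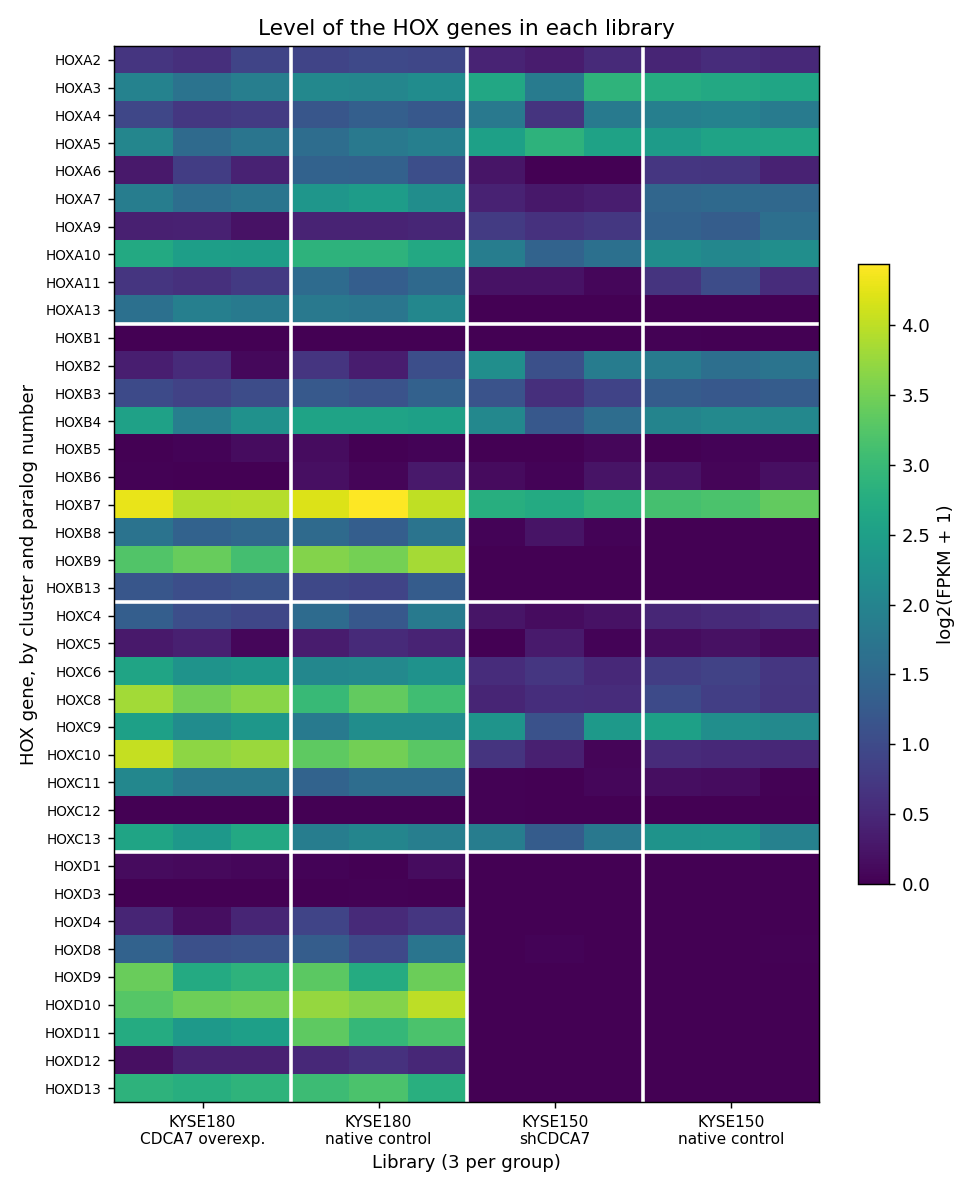
Level of the HOX genes in the 12 libraries, as log2(FPKM + 1), with rows in order of cluster and paralog number and columns in groups of 3 libraries. HOXD9, HOXD10, HOXD11 and HOXD13 are bright in KYSE180, HOXD1 and HOXD3 are dark in both lines, and every HOXD row is at or near 0 in every KYSE150 library.

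The HOXD cluster, which shapes the limbs, the digits and the hind end of the trunk in the embryo, was on in KYSE180 and silent in KYSE150. Its 9 genes collected 8473 reads over 6 KYSE180 libraries and 2 reads over 6 KYSE150 libraries, both of HOXD8. In KYSE180 controls the level was led by HOXD10 (12.8 ± 1.89 FPKM, SD, n = 3), HOXD9 (8.15 ± 2.19), HOXD11 (7.95 ± 1.16) and HOXD13 (7.12 ± 1.07). Against the level that 3 reads over the KYSE150 controls would give, HOXD10 was at least 701-fold higher in KYSE180 controls, HOXD11 at least 340.3-fold, HOXD13 at least 324-fold and HOXD9 at least 309-fold. HOXD1 and HOXD3 had few reads in KYSE180 as well, with 13 reads and 1 read in its 6 libraries. They share 58.1% and 74.1% of their exon bases with other genes, so silence and reads lost in counting cannot be told apart. Of the listed noncoding RNAs of the cluster, HOXD-AS2 averaged 4.17 FPKM with overexpression and 4.38 in KYSE180 controls, HOXD-AS2, HAGLR and HAGLROS had no read in KYSE150, and MIR10B had none in either line. Of the listed coding neighbours of the cluster, EVX2 was near 0 in KYSE180 (0.00443 FPKM with overexpression, 0.0394 in controls) and without a read in KYSE150. Read in both lines were, for example, MTX2, at 16.1 and 18.1 FPKM in overexpressing and control KYSE180 and at 29.4 and 26.1 FPKM in shCDCA7 and control KYSE150, and LNPK, at 4.76, 4.96, 4.83 and 4.49 FPKM in the same order (all named after their values were seen).

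**Figure D2:**
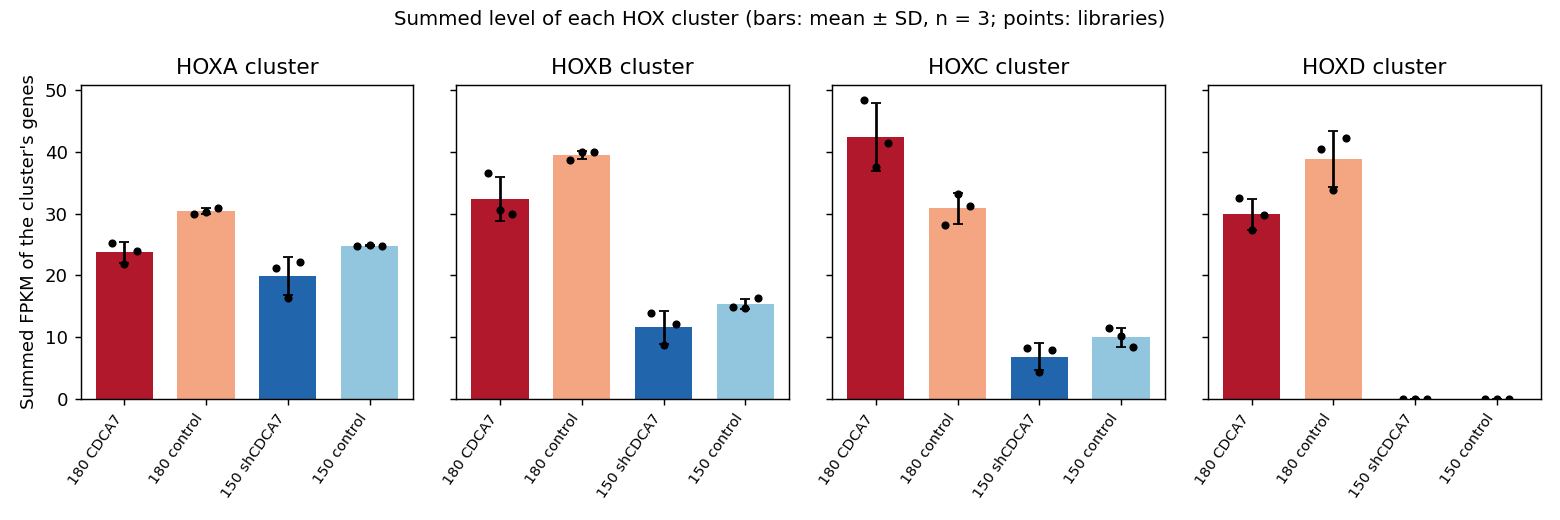
Summed FPKM of the genes of each cluster. Bars are means of 3 libraries with SD, and points are single libraries. HOXC is higher with CDCA7 overexpression than in its control (42.4 against 30.9 FPKM), HOXA, HOXB and HOXD are lower than in that control, and HOXD in KYSE150 lies at or next to 0.

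Outside HOXD, HOXA13, HOXB9 and HOXB13 also had no read in any KYSE150 library. HOXB9 averaged 11.7 ± 1.55 FPKM in KYSE180 controls (SD, n = 3), at least 609.8-fold above the level of 3 reads in KYSE150 controls. HOXA13, a gene of digits and genital ducts, averaged 2.66 ± 0.43 and HOXB13, known from the prostate, 1.09 ± 0.312, at least 274-fold and 76.7-fold above the same limit. Among genes read in both lines, HOXC11 (ratio of means 23.7), HOXC10 (21.9), HOXC8 (10.0), HOXC6 (4.65) and HOXC4 (4.19) were higher in KYSE180 controls than in KYSE150 controls. HOXB7 had the highest mean of the HOX genes in both control groups, at 17.8 ± 2.78 FPKM in KYSE180 controls and 8.35 ± 0.835 in KYSE150 controls. Lower in KYSE180 controls were HOXA9 (0.369 ± 0.0152 against 1.73 ± 0.315 FPKM), HOXB2 (0.653 ± 0.407 against 2.3 ± 0.26), HOXA5 (2.41 ± 0.378 against 4.83 ± 0.34), HOXA4 (1.38 ± 0.143 against 2.77 ± 0.156) and HOXA3 (3.27 ± 0.187 against 5.4 ± 0.301).

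Tests used limma on log2(FPKM + 1) over all genes with at least 10 reads in at least 3 libraries of the fit, and calls are two-sided, made where the p adjusted by Benjamini and Hochberg's method lay under 0.05. The added 1 makes the log2 change of a gene near or under 1 FPKM smaller than the ratio of its FPKM. Between the controls of the lines, 33 HOX genes were tested, 24 were called higher in KYSE180, 5 lower (the ones just listed) and 4 were not called (HOXB3, HOXB4, HOXC9 and HOXC13), while 57.6% of all genes were called (33.1% higher, 24.4% lower). Of the 24, 13 reached the read minimum through KYSE180 alone, which favoured a higher level there, so that this count supports nothing about the family. The 3 control libraries of each line did not overlap for 25 genes that were higher and 5 that were lower, where 70.9% of all genes did not overlap (39.2% higher, 31.7% lower). HOXB3 stood at 1.39 ± 0.201 FPKM in KYSE180 controls and 1.42 ± 0.0677 in KYSE150 controls, and HOXC13 at 2.83 ± 0.191 and 3.54 ± 0.604, with spreads that overlap. In KYSE150 controls the order below HOXB7 was HOXA3, HOXA5, HOXC9, HOXC13 and HOXA10, from 5.40 to 3.42 FPKM. From HOXC9 down, neighbours in that order differed by less than the larger of their SDs, while HOXA3 and HOXA5, and HOXA5 and HOXC9, differed by more.

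With CDCA7 overexpression in KYSE180, 6 of 33 tested HOX genes were called, HOXC13 higher and HOXA4, HOXA6, HOXA7, HOXA11 and HOXD11 lower, which is 18.2% where 8.87% of all 16086 genes were called (4.56% higher, 4.31% lower). The other 27 were not called, and 14 of the 33 had an unadjusted p under 0.05. Changes were negative in 10 of 11 HOXA, 5 of 7 HOXB and 7 of 7 HOXD genes and positive in 6 of 8 HOXC genes, most of them not called, and no difference between clusters was tested. The median change of the 33 was -0.18 on the log2 scale, with 9 above and 24 below 0, against -0.01 for all genes tested. The 3 libraries of each group did not overlap for 5 genes that were higher, all in HOXC, and for 12 that were lower, where 34.9% of all genes did not overlap (17.6% higher, 17.3% lower). Of the 33, 5 had at least 10 reads in every control library but not in every overexpression library (HOXA6, HOXA9, HOXB2, HOXD4 and HOXD12). The read minimum favoured falls in these genes, so the counts of lower genes support nothing about the family. In bulk RNA, fewer cells using a gene and less of its RNA per cell cannot be told apart.

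HOXA11, a gene of the forearm, kidney and uterus (ENSG00000005073, chromosome 7, 27181510 to 27185223), stood at 0.617, 0.532 and 0.682 FPKM with overexpression, against 1.92, 1.52 and 1.87 in KYSE180 controls, and fell by 0.78 log2 units (SE 0.11, adjusted p = 0.0137). HOXA6 (ENSG00000106006, chromosome 7, 27145396 to 27150603) stood at 0.241, 0.738 and 0.338 FPKM with overexpression, against 1.63, 1.59 and 1.11 in controls, a change of -0.77 (SE 0.15, adjusted p = 0.0307). In both genes every overexpression library lay below every control library, although HOXA6 rests on 5, 17 and 8 reads against 36, 38 and 28. HOXA7 (ENSG00000122592, chromosome 7, 27153716 to 27157936) stood at 2.69, 2.04 and 2.32 FPKM with overexpression, against 4.06, 4.46 and 3.53 in controls (-0.58, SE 0.14, adjusted p = 0.0441). HOXA4, which patterns the neck and upper trunk in mice (ENSG00000197576, chromosome 7, 27128507 to 27130799), stood at 0.92, 0.639 and 0.715 FPKM with overexpression, against 1.27, 1.54 and 1.34 in controls (-0.44, SE 0.11, adjusted p = 0.0465). These groups did not overlap either, and the lowest control value exceeded the highest overexpression value in each gene.

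The other HOXA genes were not called, and 10 of the 11 in the cluster had a negative change. HOXA10, a gene of uterine development, stood at 5.46, 4.61 and 4.54 FPKM with overexpression, against 6.34, 6.32 and 5.38 in controls, overlapping by a single pair (-0.26, adjusted p = 0.229). HOXA3, needed for thymus and parathyroid, stood at 2.92, 2.23 and 2.74 FPKM, against 3.22, 3.11 and 3.47 in controls, without overlap but also not called (-0.24, adjusted p = 0.262). HOXA5, a gene of lung and trachea that lies between HOXA4 and HOXA6 on the chromosome, stood at 3.08, 1.9 and 2.29 FPKM, against 2.01, 2.46 and 2.76 in controls. Its groups overlap fully, and its change was -0.0044 (SE 0.17), so the 2 neighbours were called and the gene between them was not; whether the 3 changes differ from each other was not tested. HOXA13 stood at 2.13, 2.76 and 2.52 FPKM, against 2.48, 2.35 and 3.15 in controls, and HOXA9, the leukaemia gene activated by MLL fusions, at 0.306, 0.332 and 0.161, against 0.365, 0.355 and 0.385. HOXA13 overlapped with its controls, and HOXA9 did not but had an adjusted p of 0.356.

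In HOXC, 6 of 8 tested genes had a positive change, and 1 of them was called. HOXC13, which drives keratin genes in hair and nail (ENSG00000123364, chromosome 12, 53938765 to 53946544), stood at 5.0, 4.17 and 5.42 FPKM with overexpression, against 2.69, 3.04 and 2.74 in controls, and rose by 0.61 (SE 0.14, adjusted p = 0.0371). It was the single HOX gene called higher. HOXC8, a gene of the thoracic skeleton and its motor neurons, stood at 13.1, 10.3 and 11.6 FPKM with overexpression, against 6.9, 9.35 and 7.41 in controls (0.52, SE 0.15, adjusted p = 0.0672). HOXC10 stood at 15.6, 11.9 and 12.6 FPKM, against 9.09, 10.3 and 8.81 in controls (0.46, SE 0.14, adjusted p = 0.0716). Both sat above all controls without passing the threshold. HOXC6 stood at 5.05, 3.86 and 4.19 FPKM with overexpression, against 3.17, 3.27 and 3.81 in controls, HOXC11 at 3.16, 2.48 and 2.48, against 1.68, 1.99 and 2.02, and HOXC9 at 4.71, 3.46 and 4.11, against 2.5, 3.49 and 3.5. The groups of HOXC6 and HOXC11 did not overlap, those of HOXC9 did, and none of the 3 was called (adjusted p between 0.128 and 0.263). HOXC4, at the anterior end of the cluster, stood at 1.5, 1.11 and 0.936 FPKM, against 1.92, 1.32 and 2.53 in controls, a change of -0.41 (adjusted p = 0.168). HOXC5 lay beside it at or under 0.447 FPKM in every KYSE180 library. Summed over the cluster, HOXC was at 48.4, 37.6 and 41.3 FPKM with overexpression, against 28.2, 33.2 and 31.2 in controls, and it stayed above the controls under library-total and upper-quartile scaling. The sums of HOXA, HOXB and HOXD lay below their controls without overlap as deposited and under the same scalings.

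In HOXD, 7 of 7 tested genes had a negative change with overexpression. Among them, HOXD4 had 10 reads in 1 overexpression library and HOXD12 in 0, against 3 control libraries each. These genes were thus tested through their controls, where they are higher. HOXD11, a gene of the forearm (ENSG00000128713, chromosome 2, 176104216 to 176109754), stood at 5.6, 4.31 and 4.66 FPKM with overexpression, against 9.08, 6.76 and 8.03 in controls, and fell by 0.61 (SE 0.15, adjusted p = 0.0461). HOXD10 stood at 8.59, 10.0 and 10.4 FPKM with overexpression, against 12.4, 11.2 and 14.9 in controls, without overlap (-0.37, adjusted p = 0.127). HOXD13, the gene of human synpolydactyly, stood at 6.29, 5.88 and 6.42 FPKM, against 7.25, 8.12 and 6.0 in controls, and overlapped (-0.17, adjusted p = 0.448). Only HOXD11 of the cluster was called. HOXD9 stood at 9.76, 5.55 and 6.27 FPKM with overexpression, against 8.96, 5.67 and 9.82 in controls. HOXD8 stood at 1.62, 1.12 and 1.2 FPKM, against 1.48, 0.962 and 2.32 in controls. These 2 spread more within groups than between them, and HOXD4 and HOXD12, each under 0.9 FPKM in every library, lay below their controls without overlap (adjusted p = 0.114 and 0.15).

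In HOXB no gene was called at an adjusted p under 0.05 by limma, with 5 of 7 changes negative. HOXB9 stood at 8.39, 9.66 and 7.7 FPKM with overexpression, against 11.2, 10.4 and 13.4 in controls, all below (-0.40, SE 0.14, adjusted p = 0.106). HOXB7, the highest HOX gene here, stood at 18.5, 14.1 and 14.3 FPKM with overexpression, against 17.5, 20.7 and 15.1 in controls, with overlap (-0.17, adjusted p = 0.501). HOXB4, known for expanding blood stem cells, stood at 4.81, 2.75 and 3.73 FPKM, against 4.99, 4.96 and 4.74 in controls. Its overexpression libraries ranged more widely than its controls. HOXB3 stood at 0.987, 0.831 and 1.03 FPKM, against 1.37, 1.19 and 1.59 in controls, without overlap (adjusted p = 0.131). HOXB8 stood at 2.23, 1.63 and 1.83 FPKM, against 1.9, 1.5 and 2.28 in controls. HOXB13 stood at 1.27, 1.09 and 1.19 FPKM, against 0.957, 0.869 and 1.45 in controls. HOXB8 and HOXB13 overlapped with their controls, as did HOXB2, at 0.291, 0.454 and 0.0697 FPKM with overexpression, against 0.598, 0.276 and 1.09 in controls.

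The calls in KYSE180 depended on single libraries. Without overexpression replicate 1 or 3, or without control replicate 1, limma called 0 of the HOX genes (1, 8 and 72 of all genes, and 13, 11 and 9 HOX genes at an unadjusted p under 0.05), without overexpression replicate 2 it called HOXA6 alone, and without control replicate 2 or 3 it called 5 in each case. Under library-total scaling HOXC13 missed the threshold (adjusted p = 0.0511) and the other 5 were called.

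**Figure D3:**
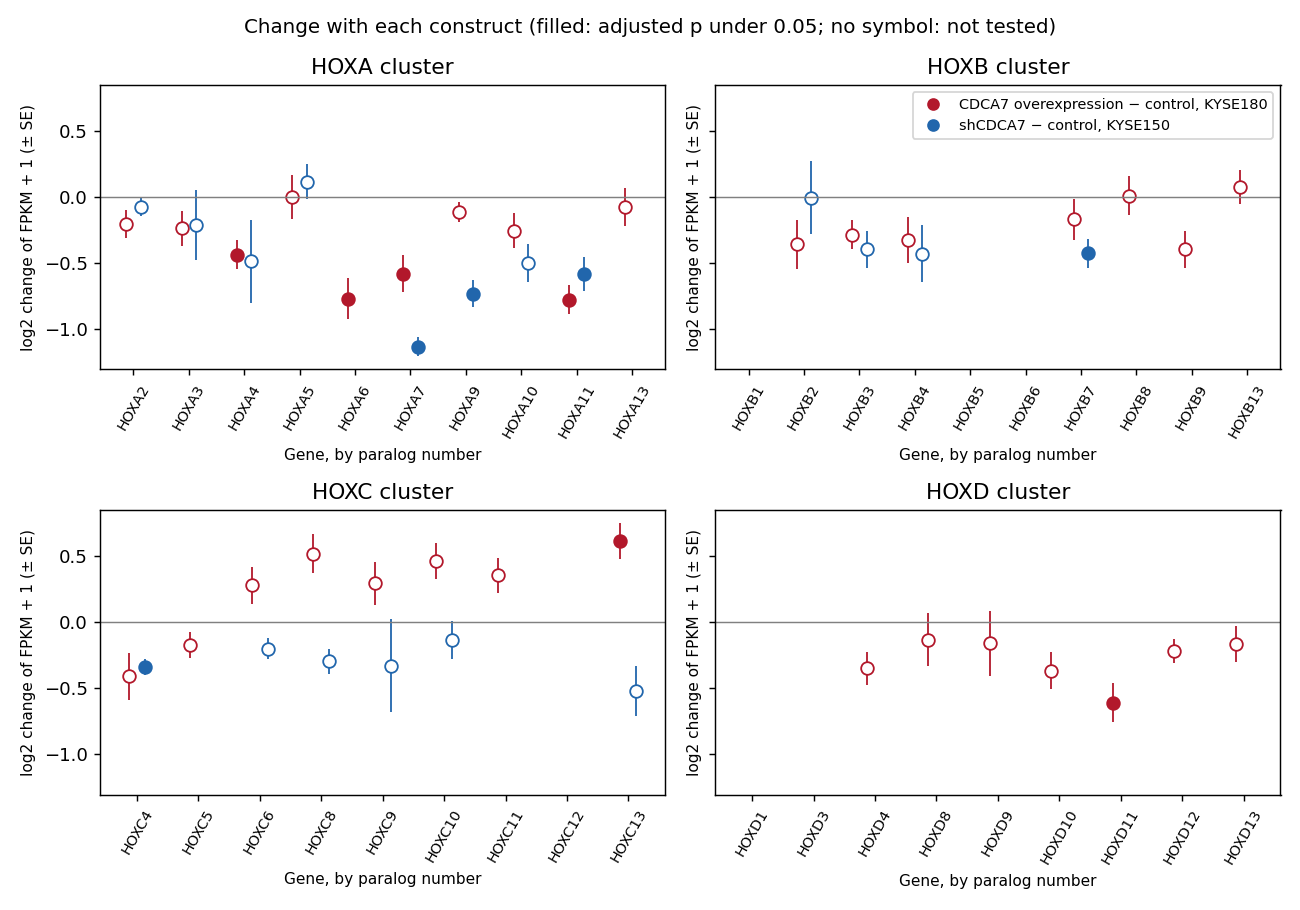
Change of HOX genes with CDCA7 overexpression (red) and with shCDCA7 (blue), as a log2 difference of FPKM + 1 against the native control of the line, with SE. Filled symbols mark an adjusted p under 0.05, and genes without a symbol had too few reads. In HOXC the red symbols lie above 0 from HOXC6 on and the blue ones lie below 0, while HOXA7 and HOXA11 are filled and negative in both colours.

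With shCDCA7 in KYSE150, 5 of 19 tested HOX genes were called lower (HOXA7, HOXA9, HOXA11, HOXB7 and HOXC4) and 0 higher, which is 26.3% where 19.6% of all 14471 genes were called (9.92% higher, 9.72% lower). The other 14 were not called, and 11 of the 19 had an unadjusted p under 0.05. Upper-quartile scaling gave 1 call higher and 4 lower (the same without HOXB7). The median change was -0.34, with 2 above and 17 below 0, against 0.00 for all genes tested. Groups did not overlap for 11 genes that were lower and 1 that was higher, where 47.6% of all genes did not overlap (25.2% higher, 22.5% lower). The other 20 HOX genes had too few reads, among them all 9 of HOXD. Of the 19, 5 had at least 10 reads in every control library but not in every shCDCA7 library (HOXA2, HOXA7, HOXA11, HOXC4 and HOXC10). HOXA11 and HOXC4 had 0 shCDCA7 libraries with 10 reads and were tested through the controls alone. The counts of lower genes therefore lean on genes admitted through the group where they are high, and support nothing about the family.

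HOXA7 showed the clearest fall: it stood at 0.341, 0.212 and 0.283 FPKM with shCDCA7, against 1.74, 1.86 and 1.83 in KYSE150 controls, and fell by 1.14 log2 units (SE 0.07, adjusted p = 0.0017). Its reads were 13, 7 and 12 with shCDCA7, against 90, 87 and 88. HOXA9 (ENSG00000078399, chromosome 7, 27162435 to 27175180) stood at 0.71, 0.555 and 0.638 FPKM, against 1.62, 1.48 and 2.08 in controls, and fell by 0.73 (SE 0.11, adjusted p = 0.00793). These 2 kept their call under all 14 alternatives run, each left-out library included. HOXA11 stood at 0.164, 0.158 and 0.0493 FPKM with shCDCA7, against 0.588, 1.05 and 0.477 in controls (-0.59, SE 0.13, adjusted p = 0.0251), with 6, 5 and 2 reads against 29, 47 and 22. HOXC4, used in lymphoid cells (ENSG00000198353, chromosome 12, 54016931 to 54056030), stood at 0.186, 0.107 and 0.167 FPKM, against 0.395, 0.434 and 0.55 in controls (-0.34, SE 0.06, adjusted p = 0.0151). HOXB7 (ENSG00000260027, chromosome 17, 48607227 to 48633572) stood at 5.88, 5.55 and 6.37 FPKM, against 7.71, 8.05 and 9.29 in controls (-0.43, SE 0.11, adjusted p = 0.0413). None of the 5 overlapped with its control, and HOXB7 was by far the most abundant of them. HOXA6, too low to test, had 4, 0 and 0 reads with shCDCA7, against 17, 15 and 9 in controls.

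**Figure D4:**
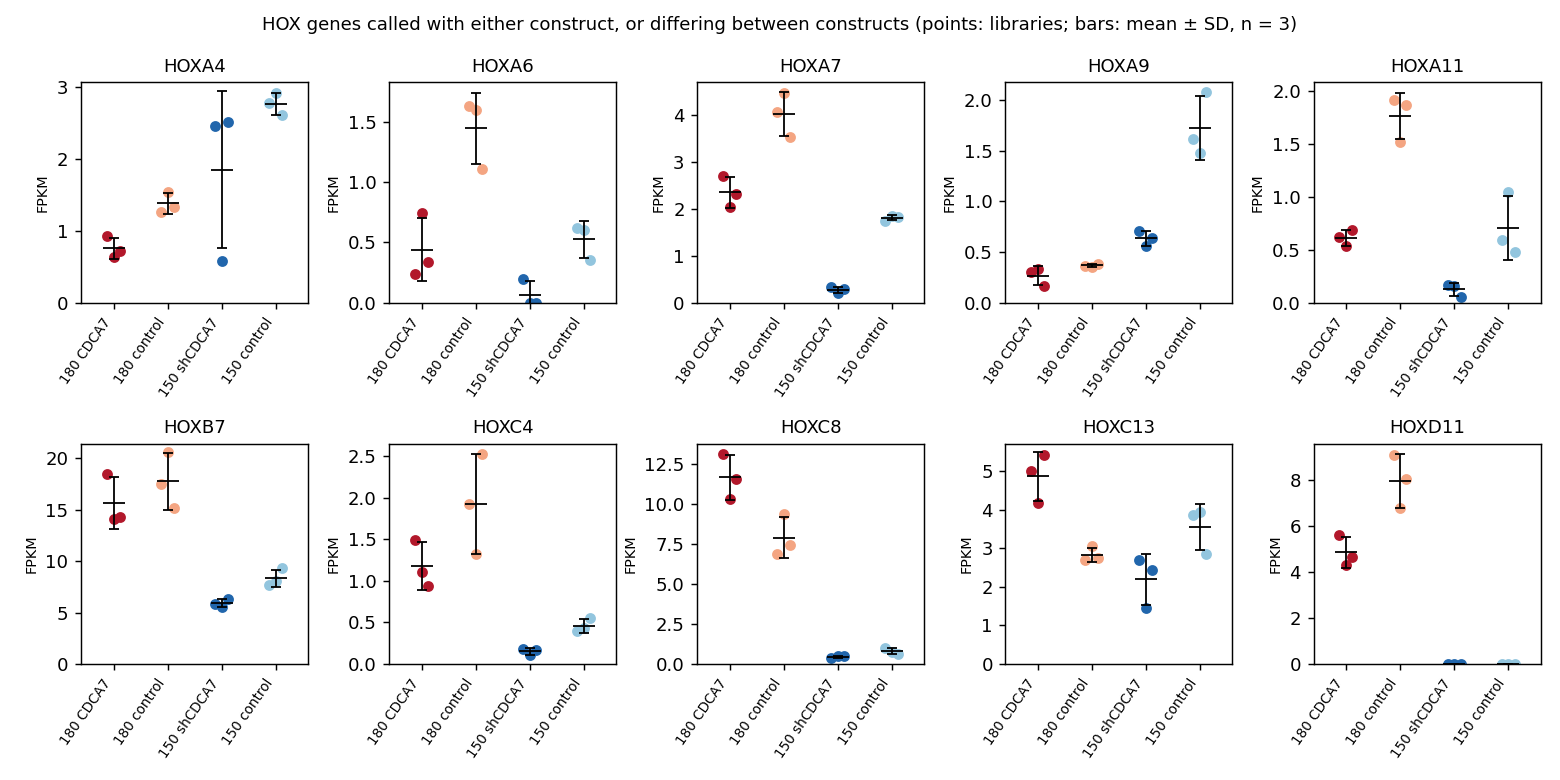
FPKM of the 10 HOX genes called with either construct or differing between constructs, in every library (points) with mean and SD of 3. In HOXA7 and HOXA11 both manipulated groups lie below their own controls, in HOXC8 and HOXC13 the overexpression group lies above its control and the shCDCA7 group below, and HOXD11 is at 0 in KYSE150.

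In several genes that were not called, shCDCA7 replicate 2 lay far from the rest of its group. HOXA4 stood at 2.46, 0.586 and 2.51 FPKM with shCDCA7, against 2.78, 2.92 and 2.6 in controls (-0.49, adjusted p = 0.30). HOXC9 stood at 3.92, 1.18 and 4.23 FPKM, against 4.76, 3.55 and 3.25 in controls, and HOXA3 at 5.33, 2.58 and 6.39, against 5.71, 5.39 and 5.11. In each of the 3 the second shCDCA7 library was the lowest of the 6. HOXB2, a gene of the hindbrain, stood at 3.55, 1.13 and 2.63 FPKM with shCDCA7, against 2.58, 2.07 and 2.25 in controls, and HOXA5 at 4.78, 6.34 and 4.87, against 4.44, 4.97 and 5.07. HOXB2 was again lowest in that library, whereas HOXA5 was highest in it. The GC content of HOX transcripts (median 55.3%, from 43.8% to 65.4%) lay above that of the genes tested in KYSE150 (48.3%), and that library had the steepest negative GC slope. With the GC trend of each library removed, an alternative added after the data were seen, 6 HOX genes were called, the same 5 and HOXA10.

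HOXA10 stood at 2.66, 1.66 and 2.1 FPKM with shCDCA7, against 3.54, 3.14 and 3.57 in controls, without overlap and just short of the threshold (-0.50, SE 0.14, adjusted p = 0.0537). HOXB4 stood at 3.2, 1.32 and 2.01 FPKM, against 3.02, 3.26 and 3.21 in controls, and HOXB3 at 1.2, 0.51 and 0.854, against 1.45, 1.34 and 1.46. HOXB3 did not overlap, HOXB4 did, and neither was called (adjusted p = 0.095 and 0.20). HOXC13 stood at 2.69, 1.45 and 2.44 FPKM with shCDCA7, against 3.86, 3.93 and 2.85 in controls (-0.52, SE 0.19, adjusted p = 0.103). HOXC8 stood at 0.368, 0.503 and 0.482 FPKM, against 0.99, 0.763 and 0.609 in controls, and HOXC6 at 0.482, 0.619 and 0.418, against 0.739, 0.828 and 0.636. All 3 lay below their controls without overlap and without a call, and 6 of 6 tested HOXC genes had a negative change. HOXC10 stood at 0.597, 0.314 and 0.0488 FPKM with shCDCA7, against 0.461, 0.419 and 0.408 in controls, with overlap. HOXC11 had 1, 0 and 3 reads with shCDCA7, against 8, 7 and 1, and HOXB8 had 1, 5 and 1, against 0, 0 and 0. HOXA2 stood at or under 0.481 FPKM in KYSE150. Summed over clusters, shCDCA7 libraries lay below controls without overlap in HOXA (19.9 against 24.8 FPKM), HOXB (11.6 against 15.4) and HOXC (6.85 against 10.0). Under upper-quartile scaling HOXC overlapped, whereas HOXA and HOXB did not.

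Without shCDCA7 replicate 2 the count became 11 of 19 (1 higher, 10 lower), with the same 5 and HOXA10, HOXB3, HOXC6, HOXC8 and HOXC13 called lower, in a fit that called 55.6% of all genes. Without control replicate 1, 2 or 3 the count was 2 in each case (HOXA7 and HOXA9). In these fits HOXA11 and HOXC4 fell under the read minimum and were not tested, whereas HOXB7 was tested and not called. Without shCDCA7 replicate 3 it was 3 (HOXA7, HOXA9 and HOXC4), and without shCDCA7 replicate 1 it was 6, of which HOXA7, HOXA9 and HOXC4 are among the 5 and HOXA10, HOXB3 and HOXB4 are not.

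CDCA7 was moved in opposite directions by the 2 constructs, and the comparisons share no library. Of 19 HOX genes tested in both lines, 12 had a negative change with both (63.2%), against 31.9% of the 13494 genes tested in both. HOXA7 and HOXA11 were called lower with both (10.5%, against 1.42% of all genes). The 12 are HOXA2, HOXA3, HOXA4, HOXA7, HOXA9, HOXA10, HOXA11, HOXB2, HOXB3, HOXB4, HOXB7 and HOXC4. In KYSE150, 10 reads were reached in 0 shCDCA7 libraries for HOXA11 and in 2 for HOXA7, against 3 control libraries each. HOXA2, HOXA9, HOXB2 and HOXC4 also reached 10 reads in every library of the controls only, in 1 of the comparisons. Because the read minimum favoured falls in these genes, the shares support nothing about the family. HOXA5, HOXC6, HOXC8, HOXC9, HOXC10 and HOXC13 went in opposite directions. The sign of HOXB2 with shCDCA7 and of HOXA5 with either construct turned under another scaling.

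The difference between the constructs, (overexpression minus its control) minus (shCDCA7 minus its control), was tested in 1 fit of the 12 libraries and was called for 3 of 33 HOX genes, where 5.47% of all genes were called (2.81% higher, 2.66% lower). Of the 33, 13 reached the read minimum through KYSE180 alone, and 9 had no read in KYSE150, HOXD11 among them. For those 9 the difference is the overexpression change alone and says nothing about shCDCA7, also where HOXD11 was called below. HOXC13 differed by 1.13 (SE 0.24, adjusted p = 0.0227), combining 0.61 with overexpression and -0.52 with shCDCA7. HOXC8 differed by 0.81 (SE 0.20, adjusted p = 0.038), although neither of its changes was called alone. HOXA9 differed by 0.62 (SE 0.13, adjusted p = 0.0227), from -0.11 with overexpression and -0.73 with shCDCA7. For HOXA7 the 2 falls differed by 0.55 (adjusted p = 0.0666) and for HOXA11 by -0.19 (adjusted p = 0.537), neither called. HOXA9 is at a lower level in KYSE180 controls (0.369 ± 0.0152 FPKM) than in KYSE150 controls (1.73 ± 0.315), and on a log2(FPKM + 1) scale a low level limits how far a gene can fall. Leaving out 1 library gave 0 calls by limma without KYSE180 control replicate 1 or KYSE150 control replicate 1 (9 HOX genes at an unadjusted p under 0.05 in each). It gave 1 without overexpression replicate 1 (HOXD11, none of the 3) or 3, without shCDCA7 replicate 3 and without KYSE150 control replicate 2 or 3, and 6 without KYSE180 control replicate 2. All 3 kept their call without shCDCA7 replicate 2. Library-total scaling called the same 3 higher and HOXD11 lower, 1 more.

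Many HOX exons are shared with another gene, and the sources used here give no strand setting for the counting. HOXA7 shares 62.5% of its exon bases with the antisense RNA HOXA-AS3 (0.196 FPKM with overexpression and 0.244 in controls, 0.0637 with shCDCA7 and 0.115 in controls), HOXA4 47.3% and HOXA6 40.1% with neighbouring RNAs, HOXA11 31.1% with HOXA11-AS (0.287 and 0.283 in KYSE180, 0.0323 and 0.0629 in KYSE150), and HOXC13 7.10%. HOXA9 shares 27.0%, in part with the antisense RNA HOXA10-AS. That RNA averaged 0.116 FPKM with overexpression and 0.209 in controls, and 0.263 with shCDCA7 and 0.685 in controls. HOXD10 and HOXD11 share 452 bases on the same strand, and HOXC4 and HOXC6 share 484. HOXB7 and HOXC8 share none. How reads of shared bases were divided cannot be told from the files. HOXD4 shares 80.5% of its exon bases, HOXD3 74.1%, HOXC5 59.9% and HOXD1 58.1%. Values of HOXA7, HOXA6, HOXA4, HOXA9, HOXA11, HOXC4, HOXC5, HOXD1, HOXD3, HOXD4 and HOXD11, among others, are uncertain to that extent.

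Noncoding RNAs of the clusters were not called with either construct at an adjusted p under 0.05 by limma, 0 of 14 tested with overexpression and 0 of 6 with shCDCA7 (5 and 2 at an unadjusted p under 0.05). HOTAIR, of the HOXC cluster, stood at 1.07, 1.39 and 0.939 FPKM with overexpression, against 0.962, 1.12 and 1.36 in KYSE180 controls, and averaged 0.030 with shCDCA7 and 0.0823 in KYSE150 controls. HOTAIRM1, of the HOXA cluster, stood at 16, 6.89 and 18.9 FPKM with shCDCA7, against 6.56, 6.46 and 6.32 in KYSE150 controls (adjusted p = 0.106), and HOXB-AS4 at 1.66, 3.34 and 5.19 with overexpression, against 12.4, 7.24 and 6.07 in KYSE180 controls (adjusted p = 0.0718). HOXA10-AS, antisense to HOXA9 and HOXA10, came nearest to a call with shCDCA7 (limma log2 change -0.41, adjusted p = 0.0502). It stood at 0.268, 0.177 and 0.344 FPKM with shCDCA7, against 0.791, 0.84 and 0.423 in KYSE150 controls. These noncoding RNAs were named after their values were seen. Of 19 coding neighbours of the clusters tested, ATF2, a stress-responsive factor beside HOXD, was higher with overexpression (13.6 ± 0.672 against 7.56 ± 0.755 FPKM) and higher with shCDCA7 (10.7 ± 1.74 against 6.52 ± 0.277). With shCDCA7, 6 of 19 neighbours were called, where 19.6% of all genes were; COPZ1 and HIBADH were also among 5 called higher, and SMUG1, a DNA glycosylase beside HOXC, was the one called lower (4.08 ± 0.368 against 8.96 ± 0.218 FPKM).

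Genes that regulate or accompany HOX genes were read from lists, with values given as mean ± SD of 3 libraries. Among TALE cofactors, MEIS1 was the one of 9 called higher with overexpression (0.901 ± 0.0287 against 0.505 ± 0.067 FPKM). With shCDCA7, of 7 tested, PBX3 was higher (7.98 ± 0.733 against 5.47 ± 0.368) and PKNOX1 (1.94 ± 0.33 against 3.19 ± 0.0703) and MEIS2 (0.86 ± 0.0626 against 1.49 ± 0.135) were lower. Among 32 Polycomb genes, JARID2 was the one called higher with overexpression (19.4 ± 3.05 against 11.5 ± 1.42). With shCDCA7, 4 were higher, led by MTF2 (9.16 ± 0.671 against 5.31 ± 0.166), RYBP and YAF2, and 3 were lower, CBX2 (2.21 ± 0.244 against 4.5 ± 0.0609), PCGF6 and KDM2B. Of 26 Trithorax and MLL genes, DPY30 was called higher with overexpression (18.8 ± 1.69 against 13.4 ± 0.952). KDM6A, the demethylase that removes the Polycomb mark, was higher with shCDCA7 (37.3 ± 4.96 against 9.8 ± 0.186), and 6 were lower, led by MEN1, a partner of MLL (9.33 ± 2.05 against 20.6 ± 0.757), SETD1A (6.07 ± 1.25 against 9.95 ± 0.54) and SETD1B (3.69 ± 0.393 against 6.16 ± 0.29).

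Retinoic acid genes included ALDH1A1, a synthetic enzyme, as the one of 13 called higher with overexpression (13.4 ± 1.33 against 8.1 ± 1.07 FPKM). With shCDCA7, of 11 tested, CRABP2 (11.8 ± 0.238 against 5.77 ± 0.685) and DHRS3 were higher, and 4 were lower, led by TGM2 (39.5 ± 3.08 against 76.5 ± 4.12), ALDH1A3 and the receptor RXRA (5.07 ± 0.453 against 8.04 ± 0.279). Of 11 CTCF and cohesin genes, RAD21 was the one called, higher with overexpression (80.6 ± 2.27 against 57.4 ± 2.96) and with shCDCA7 (74.2 ± 17.6 against 47.8 ± 1.15). Median changes of these lists with overexpression were 0.14 (TALE), 0.09 (Polycomb), -0.01 (Trithorax and MLL), 0.10 (retinoic acid) and -0.14 (CTCF and cohesin), against -0.01 for all genes, and with shCDCA7 -0.02, 0.11, 0.08, -0.34 and 0.29 in the same order, against 0.00. With overexpression each of these 5 lists held 1 call, where 8.87% of all genes were called. The adjusted p of these calls by limma ran from 0.0314 (ALDH1A1) to 0.0491 (DPY30). Without overexpression replicate 1 limma called 1 of all genes, so at most 1 of these 5 calls could hold in that fit. With shCDCA7 the calls in either direction were 3 of 7 (TALE), 7 of 32 (Polycomb), 7 of 26 (Trithorax and MLL), 6 of 11 (retinoic acid) and 1 of 11 (CTCF and cohesin), where 19.6% of all genes were called.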

How the data were processed

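RNA of 12 libraries was sequenced in bulk. The submitters' processing notes list HISAT2 2.0.5, DESeq2 1.20.0 and, as the build, mm10. That is a mouse build, whereas the starts and ends of all 58735 genes match GENCODE 29 on GRCh38, which is used here. The values as deposited behave as FPKM, that is, reads per gene divided by the authors' gene length and by a depth factor, although the file names no unit. Multiplied by gene length, 100% of values above 0 fell on whole steps of their library (tolerance 0.01 reads), so whole reads could be recovered. The sources used here name no counting tool. Because FPKM is no count, the main test was limma 3.58.1 (R 4.3.3) with an intensity trend on log2(FPKM + 1), with a minimum of 10 reads in 3 libraries, adjusted over all genes tested. Each construct was fitted on the 6 libraries of its line, and comparisons across lines on all 12. Alternatives were an added 0.1, no filter, library-total and upper-quartile scaling, limma-voom on recovered reads, a replicate block, other sets of libraries and leaving out each library. Removal of GC trends was added after seeing the data. The fits were tested on simulated data. Limits set by 3 reads cover counting error only and refer to the reads of a whole group. Values in every library are given for genes called with a construct or averaging at least 1 FPKM in a group (29 genes, of which 1 is not reported here), and up to 3 called genes per list and direction are named. The genes and lists were chosen with earlier results of these data known. Promoter sequences are from RefSeq (GRCh38.p14). Libraries of different groups with the same number did not deviate together (correlations from -0.0727 to 0.055), so they were not treated as pairs.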

Additional observations from a re-analysis of the deposited data

Results flagged for a closer look

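For 3 HOX genes the effects of the constructs differed from each other in a test of the difference itself, the change with overexpression in KYSE180 less the change with shCDCA7 in KYSE150, by limma over 12 libraries. HOXC13 differed by 1.13 log2 units (SE 0.24, adjusted p = 0.0227). Its overexpression libraries were higher than all controls of KYSE180 and its shCDCA7 libraries lower than all controls of KYSE150. HOXC8 differed by 0.81 (SE 0.20, adjusted p = 0.038), with the same arrangement of libraries. HOXA9 differed by 0.62 (SE 0.13, adjusted p = 0.0227). It was lower in all 3 libraries of both manipulated groups, with a change of -0.11 with overexpression, which was not called, and of -0.73 with shCDCA7. HOXA9 averaged 0.369 FPKM in KYSE180 controls and 1.73 in KYSE150 controls, and on a log2(FPKM + 1) scale a low level limits the fall. The test cannot tell that limit from a weaker effect in KYSE180. With 0.1 added in place of 1 the difference of HOXA9 was not called.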

How the results depend on the processing

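With overexpression the 6 called HOX genes became 0 with no filter on low reads (limma, 12 at an unadjusted p under 0.05), 10 in a fit of all 12 libraries and 0 to 5 when 1 library was left out. With shCDCA7 the 5 became 2 with no filter, 8 with library-total scaling and 2 to 11 when 1 library was left out. The difference between constructs, 3, became 1 with no filter and 0 to 6 when 1 library was left out. Between the controls the count of 29 stayed between 25 and 30 in every alternative. Of the genes called lower in KYSE180, HOXA3 and HOXA4 each lost their call in 8 of 20 alternatives, among them every fit without 1 control library. With the replicate number as a block, 2 genes (HOXA6 and HOXA11) were called with overexpression, 3 (HOXA7, HOXA9 and HOXA11) with shCDCA7, 30 between the controls and 2 in the difference. Library-total scaling shifted the median of all genes to -0.16 with shCDCA7. Signs turned for genes that were not called. With overexpression these were HOXB8 (-0.078) under library totals, HOXA5 (0.0115) under the upper quartile and HOXB8 (-0.0083) with the GC trend removed. With shCDCA7 they were HOXA5 (-0.11) under library totals and HOXB2 under the upper quartile (0.031) and with the GC trend removed (0.10). The cause was not tested. With 1 library left out, the change with overexpression ran from -0.14 to 0.11 for HOXA5, -0.14 to 0.019 for HOXA13, -0.095 to 0.10 for HOXB8, -0.0043 to 0.19 for HOXB13 and -0.32 to 0.062 for HOXD8. With shCDCA7 it ran from -0.43 to 0.097 for HOXA3, -0.25 to 0.30 for HOXB2, -0.56 to 0.076 for HOXC9 and -0.28 to 0.019 for HOXC10, and between the controls from -0.083 to 0.038 for HOXB3. Genes without 10 reads in 3 libraries of a fit, among them all of HOXD in KYSE150, were left out of the main test.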

Other observations

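Of 13 other homeobox genes related to HOX, 7 were tested between the controls and 6 were called higher in KYSE180, where 57.6% of all genes were called (33.1% higher). The 6 (CDX2, PDX1, GBX2, EN1, EN2 and MEOX1) had too few reads to be tested within KYSE150. They reached the read minimum through KYSE180, which favoured a higher level there, and the count supports nothing about these genes as a set. MNX1 was not called (1.34 ± 0.197 FPKM in KYSE180 controls against 1.54 ± 0.173 in KYSE150 controls, adjusted p = 0.521), and CDX1, CDX4, GSX1 and MEOX2 had no read in any library. CDX2, an intestinal factor that acts on HOX genes in the embryo, averaged 3.79 ± 0.35 FPKM with overexpression and 4.94 ± 0.721 in KYSE180 controls (SD, n = 3) and had no read in KYSE150. EN2 was at 2.24 ± 0.206 and 2.81 ± 0.398 FPKM in the KYSE180 groups and without a read in KYSE150, and EN1 at 3.43 ± 0.494 and 3.31 ± 0.219. With overexpression 7 were tested, where MEOX1, a gene of the somites, was called higher (3.91 ± 0.267 against 1.27 ± 0.445 FPKM, limma log2 change 1.13, SE 0.17, adjusted p = 0.0171). With shCDCA7 MNX1 was the one gene with enough reads and was called lower (0.721 ± 0.308 against 1.54 ± 0.173 FPKM, -0.58, SE 0.15, adjusted p = 0.0411).

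Of 10 squamous markers, 0 of 10 tested were called by limma with overexpression (5 at an unadjusted p under 0.05), with summed levels of 4326 to 5017 FPKM against 2448 to 3860 in controls. With shCDCA7, 5 of 8 tested were called higher, where 19.6% of all genes were called (9.92% higher), led by DSG3 (26.2 ± 3.49 against 14.7 ± 0.686 FPKM), KRT5 (332 ± 6.35 against 209.6 ± 6.5) and TP63 (36.9 ± 3.39 against 24.3 ± 0.462), with sums of 699 to 823 against 490 to 507. Their part in the HOX results was not tested. Among markers of fibroblasts, leukocytes and endothelium, 2, 2 and 2 were tested with overexpression and 1, 1 and 1 with shCDCA7, and 0 were called by limma (0, 1 and 1 with overexpression and 1, 0 and 0 with shCDCA7 at an unadjusted p under 0.05).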
